A study of Mus musculus with 860 samples.

Results

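Cluster 1 was a set of single cells from the aorta-gonad-mesonephros region (AGM) of mouse embryos, with 71 cells in batch GL53, 48 in GL78, 25 in GL58 and 1 in GL69, together 18.7% of the 775 cells kept by quality control out of 860 sequenced. Its members were the cells to which the deposited annotation gave Louvain cluster 1, and its working markers were Igfbp3, Tmem255a, Sparcl1, Kcne3 and Col4a1. It was described against the 516 kept cells of clusters 0, 2, 3, 4 and 5, within each batch name of the annotation. All embryos carried the Gfi1:tomato reporter, and single cells were index sorted through 3 gates and sequenced by Smart-Seq2, a full-length method that gives no molecular identifiers. The gates were GFI1+ HE (CD31+cKIT-GFI1+, the gate for hemogenic endothelium), GFI1+ IAHC (CD31+cKIT+GFI1+, cells of the intra-aortic hematopoietic clusters) and GFI1- IAHC (CD31+cKIT+GFI1-), each at the embryonic stages E11.5 and E10.5. AGMs were pooled before sorting and no label ties a cell to an embryo, so each cluster counts as 1 sample, no p-value is given for any comparison, and a cluster set against other clusters is a description of how the clustering divided the cells.

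The E11.5 GFI1+ HE gate gave cluster 1 more of its cells than any other gate and stage. GFI1+ HE cells of E11.5 numbered 67 (46.2% of cluster 1), GFI1+ IAHC cells of E11.5 39 (26.9%), GFI1+ HE cells of E10.5 15 (10.3%), and the E11.5 GFI1- IAHC and E10.5 GFI1+ IAHC gates 12 each (8.28%). Seen from the gates, cluster 1 took 38.9% of the kept E11.5 GFI1+ HE cells (exact 95% binomial interval 31.6 to 46.7%), 16.2% of the E11.5 GFI1+ IAHC cells (11.8 to 21.5%) and 8.89% of the E11.5 GFI1- IAHC cells (4.68 to 15%). At E10.5 it took 13.8% of the GFI1+ HE cells (7.91 to 21.7%), 10.3% of the GFI1+ IAHC cells (5.46 to 17.4%) and 0 of 3 GFI1- IAHC cells. The E11.5 GFI1+ HE share was 38.9% in batch GL53, 47.4% in GL58 and 35% in GL78, above the E11.5 GFI1+ IAHC share in each (16.5%, 33.3% and 10.1%). At E10.5 the GFI1+ HE share differed between batches, at 33.3% in GL58 and 9.89% in GL78. These intervals cover counting error only, and the cells came from 11 plates, of which 1 held 60 of them, with the stages on different plates. Values below are given for batches GL53, GL58 and GL78, in that order unless named, and GL69 had too few cells to be compared.

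Blood vessels grow by sprouting: tip cells lead the sprout, extend filopodia toward VEGF and carry genes such as Esm1, Kcne3 and Apln, while stalk cells follow, lay down basement membrane and form the lumen. Arterial endothelium is set apart by Notch signalling through DLL4 and the HEY repressors and by connexins, and venous endothelium by the transcription factor NR2F2 and receptors such as NRP2 and APLNR. In the AGM a part of the arterial wall is hemogenic, turns on RUNX1 and GFI1 and releases blood stem and progenitor cells.

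Cluster 1 carried endothelial RNA and next to no hematopoietic RNA. A cell of cluster 1 held 309572 to 1335980 gene counts (median 797171) and a median of 7321 genes with a read, against median counts of 715266 to 830079 in clusters 0, 2, 3, 4 and 5. No cell column of the table was identical to another. All 8 endothelial markers, Pecam1, Cdh5, Kdr, Tek, Tie1, Esam, Egfl7 and Erg, exceeded 10 counts per 1000000 gene counts (CPM), and together they summed to 6536 CPM in cluster 1 and 5104 CPM in the other clusters. Of 8 hematopoietic markers 1 did (Coro1a, 21.8 CPM), with a sum of 33.3 CPM in cluster 1 and 529 CPM in the other clusters as a pool. Of these markers Ptprc had reads in 72.5% of the cells of cluster 2, but in 0 to 1.75% of each other cluster. Mesenchymal markers summed to 2.65 CPM with Pdgfrb and Rgs5 at 0, and the 3 germ cell markers were at 0. Gfi1, whose reporter defined the gates, had 0, 0 and 1.33 CPM in cluster 1, against 7.59, 6.43 and 16.4 CPM in the other clusters as a pool. By single clusters it had reads in 42.2% of the cells of cluster 2 and 10.53% of cluster 4. It had reads in 1.38% of cluster 1 and 0% of clusters 0, 3 and 5, so its near absence was shared with these 3 clusters.

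A few cells of cluster 1 stood apart from the rest of it. In 1 E11.5 GFI1- IAHC cell of GL78 the endothelial markers summed to 6.46 CPM and the macrophage markers to 5795 CPM, while the next lowest endothelial sum was 2054 CPM and the median 6419 CPM. Globins summed to 26954 CPM in 1 E10.5 GFI1+ HE cell of GL78 and to 8742 CPM in 1 E11.5 GFI1+ IAHC cell of GL53, and the third highest cell had 335.7 CPM. Platelet markers summed to 1665 CPM in the same GL53 cell and to 2765 CPM in 1 E11.5 GFI1+ HE cell of GL53. The globin genes Hbb-bh1 (12.2, 2.81 and 159.02 CPM in cluster 1, against 0.256, 0.0372 and 0.760 CPM) and Hbb-y are therefore counted below but not described as genes of the cluster. Leaving out these 4 cells, a choice made after the data were seen, gave 0.737% higher and 3.89% lower genes in place of the 0.717% and 3.75% given below.

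The 5 markers separated cluster 1 to different degrees. Igfbp3, which encodes a binding protein of insulin-like growth factors, had 1157, 1206 and 1231 CPM in cluster 1, against 347.7, 517 and 215.1 CPM in the other clusters (mean log2 ratio 1.82 ± 0.65, SD over 3 batches). Tmem255a, a transmembrane protein gene, had 787, 931 and 721 CPM against 243.8, 283.3 and 160.8 CPM (1.85 ± 0.26), and Kcne3, an accessory subunit of potassium channels, 525, 424 and 535 CPM against 103.8, 101.7 and 34.7 CPM (2.76 ± 1.00). These 3 were more than 2-fold higher in each batch. Sparcl1, a secreted matrix-associated protein gene, had 1145, 865 and 846 CPM in cluster 1 and 666, 410 and 228.9 CPM elsewhere (1.25 ± 0.57), short of 2-fold in GL53. Col4a1, the alpha 1 chain of basement membrane collagen IV, had 2064, 1617 and 1832 CPM against 1398, 1344 and 1096 CPM (0.52 ± 0.24), and was not 2-fold higher in any batch.

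Single clusters showed where the markers were shared. Igfbp3 in GL53 and GL78 had 1157 and 1231 CPM in cluster 1, 573 and 549 CPM in cluster 4 and 288.34 and 205.17 CPM in cluster 0. It had 400.68 and 210.49 CPM in cluster 3 and 522.31 and 292.48 CPM in cluster 5. Tmem255a had 787.1 and 720.83 CPM in cluster 1, 463.32 and 280.98 CPM in cluster 3 and 471.59 and 260.48 CPM in cluster 5. Over cluster 3 alone Tmem255a was not called higher (log2 ratio 0.763 in GL53). It had reads in 94.06% of the cells of cluster 3 and 92.98% of cluster 5, against 97.24% of cluster 1. Sparcl1 reached 1810 CPM in cluster 4 in GL53, above the 1145 CPM of cluster 1, but 558 CPM in GL78, below the 846 CPM of cluster 1. Kcne3 had 525 and 535 CPM in cluster 1, against 290.68 and 82.6 CPM in cluster 3 and 2.23 and 0.0334 CPM in cluster 4. After each cell was thinned to 50000 counts, 97 cells of cluster 1 (66.9%) had a read of all 5 markers, against 30.7% of cluster 3, 28.1% of cluster 5, 14.5% of cluster 0, 2.63% of cluster 4 and 0% of cluster 2. Within cluster 1 the markers still varied from cell to cell: Igfbp3 ran from 0 to 4953 CPM with a median of 792 CPM, Kcne3 from 0 to 3719 CPM with a median of 173.6 CPM, and 73.8% of the cells had a read of Kcne3.

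**Figure D1:**
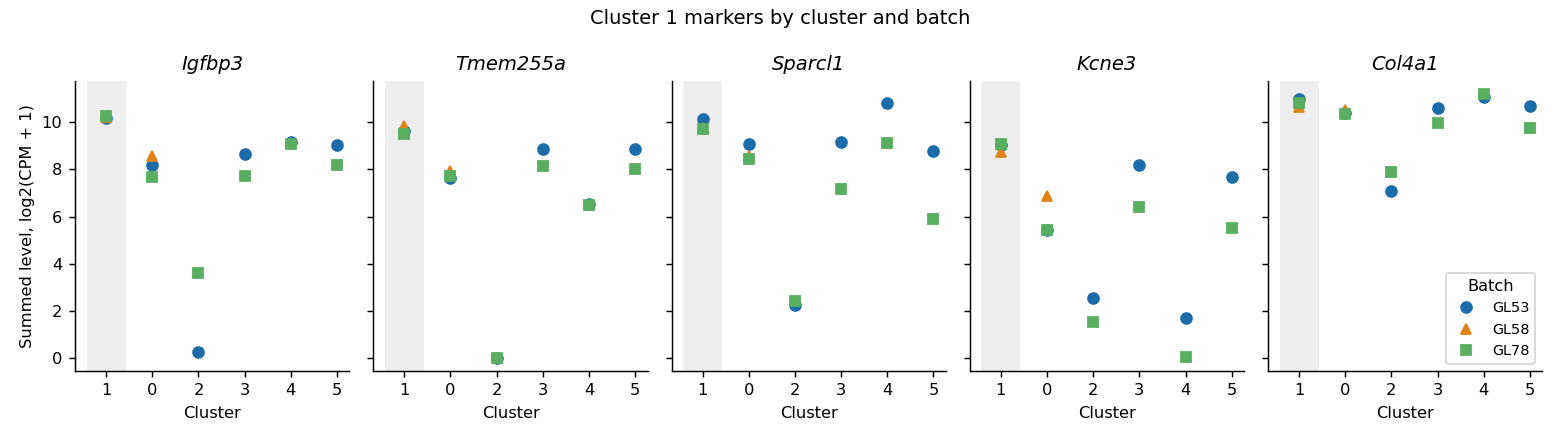
Summed CPM (log axis) of the 5 markers in cluster 1 and in clusters 0, 2, 3, 4 and 5, with a point for each batch that held at least 10 cells of the cluster. Kcne3 sat at 424 to 535 CPM in cluster 1 and at 2.23 and 0.0334 CPM in cluster 4, while Col4a1 in cluster 4 (2138 and 2352 CPM) lay above the 1617 to 2064 CPM of cluster 1.

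The markers lie in different parts of the genome (GRCm38, GENCODE M21): Igfbp3 at chr11:7206086-7213923, Tmem255a at chrX:38196573-38252439, Sparcl1 at chr5:104079111-104113733 and Col4a1 at chr8:11198423-11312826, all on the minus strand, and Kcne3 at chr7:100176502-100184869 on the plus strand. Because Igfbp3, Tmem255a, Esm1 and Prdm1 were together higher in cluster 1, the 250 bases before the start of each are shown from RefSeq (GRCm38.p6), read along the strand of the gene. The windows are chr11:7213924-7214173 (minus) for Igfbp3, chrX:38252482-38252731 (minus) for Tmem255a, chr13:113209409-113209658 (plus) for Esm1 and chr10:44458749-44458998 (minus) for Prdm1. Capitals mark GGAAG or its reverse complement CTTCC, a core recognised by ETS family factors, which many endothelial enhancers carry.
Igfbp3: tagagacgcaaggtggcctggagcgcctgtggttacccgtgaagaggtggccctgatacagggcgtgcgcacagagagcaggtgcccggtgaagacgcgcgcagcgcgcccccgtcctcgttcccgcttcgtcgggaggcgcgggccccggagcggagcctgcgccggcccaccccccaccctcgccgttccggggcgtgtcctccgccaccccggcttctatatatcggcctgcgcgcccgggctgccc
Tmem255a: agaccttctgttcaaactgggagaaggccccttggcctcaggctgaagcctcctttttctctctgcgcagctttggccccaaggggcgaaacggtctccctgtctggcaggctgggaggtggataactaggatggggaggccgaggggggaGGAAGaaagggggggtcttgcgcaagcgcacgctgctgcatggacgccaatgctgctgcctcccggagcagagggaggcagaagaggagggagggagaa
Esm1: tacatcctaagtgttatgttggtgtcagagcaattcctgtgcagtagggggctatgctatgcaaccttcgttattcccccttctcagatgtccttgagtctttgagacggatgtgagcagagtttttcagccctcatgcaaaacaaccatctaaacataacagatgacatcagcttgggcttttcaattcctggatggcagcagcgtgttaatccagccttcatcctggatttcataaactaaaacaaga
Prdm1: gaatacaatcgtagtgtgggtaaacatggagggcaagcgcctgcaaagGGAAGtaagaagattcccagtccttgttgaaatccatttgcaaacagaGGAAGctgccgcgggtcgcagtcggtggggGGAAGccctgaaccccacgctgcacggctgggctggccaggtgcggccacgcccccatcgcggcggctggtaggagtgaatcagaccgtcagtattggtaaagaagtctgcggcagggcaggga
The word occurred 3 times before Prdm1, 1 time before Tmem255a and 0 times before Igfbp3 and Esm1. Of the genes higher in cluster 1 than in the other clusters as a pool, 65 remained after unnamed predicted genes were passed over. Of these 44 had a window, and 32 of those (72.7%) held the word, against 17193 of 27025 promoters (63.6%). A match is a run of letters and not a bound site.

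Against the other clusters as a whole, cluster 1 was defined by a short list of higher genes and a longer list of lower ones. A gene was counted as higher or lower when the higher side averaged at least 10 CPM and the ratio of the sides, after 1 CPM was added to both, reached 2-fold with 1 sign in each batch. Of 9765 genes tested, 70 (0.717%) were higher and 3.75% were lower in cluster 1. The higher genes named here, which had reads in at least 25% of its cells, included genes of secreted, matrix and lumen proteins, and of the lower ones 60.1% had their highest level in cluster 2, 22.1% in cluster 4 and 4.64% in cluster 0 in both GL53 and GL78.

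The tip cell gene Esm1, which encodes the secreted proteoglycan endocan, had 85.99, 141.9 and 158.9 CPM in cluster 1, against 7.85, 0.706 and 3.61 CPM in the other clusters (4.93 ± 1.55). It had reads in 28.2, 48.0 and 54.2% of the cells of cluster 1 and in 5.58, 9.68 and 3.83% of the others, so that the level rested on a fraction of the cells. Adm, which encodes the vasodilator peptide adrenomedullin, had 55.8, 44.9 and 65.1 CPM against 15.8, 11.3 and 12.1 CPM (2.00 ± 0.30). Of the 21 tested genes of a tip cell and sprouting list, 5 were higher (Esm1, Kcne3, Adm, Nid2 and Igfbp3) and 0 lower, with a median log2 ratio of 0.87 beside -0.08 over all genes. Kcne3 and Igfbp3 were also working markers of the cluster, so this tally is not independent of how the cluster was chosen. Vegfc, a VEGF family ligand, lay at the other end of that list at -1.21, with Plaur (-0.73) and Angpt2 (-0.10) next. Apln (0.68) was not counted as higher. Pgf, another tip cell marker, was low on both sides, at 1.93 CPM in cluster 1 and 4.24 CPM in the other clusters.

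Matrix genes were also among the highest. Nid2, a nidogen that links laminin to collagen IV, had 446, 443 and 476 CPM in cluster 1 and 118.8, 115.3 and 116.2 CPM elsewhere (1.95 ± 0.06), the smallest SD among the 15 highest genes. Col15a1, a basement membrane collagen, had 166.7, 147.2 and 141.7 CPM against 56.6, 45.5 and 33.9 CPM (1.75 ± 0.25), and Vwa1, an extracellular matrix protein gene, 72.6, 36.4 and 71.3 CPM against 6.37, 1.15 and 5.67 CPM (3.63 ± 0.43). The basement membrane list as a whole was split: of 21 genes 2 were higher (Nid2 and Col15a1) and 2 lower, the laminin chain Lama5 (-2.55) and fibronectin, Fn1 (-2.24), with a median of 0.52. Over cluster 3 alone 0 of 20 genes of the list were higher or lower. There Nid2 stood at 1.22, Col15a1 at 1.12 and Fn1 at -0.14, while Vwa1 was called higher (2.75). Mmp25, a membrane-anchored metalloprotease gene, was higher at 1.77 ± 0.35.

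The other genes of the 15 highest had varied roles. Gpihbp1, which carries lipoprotein lipase to the capillary lumen, had 129.2, 88.9 and 102.7 CPM in cluster 1, against 32.3, 15.5 and 16.98 CPM (2.31 ± 0.30), and Mgll, a monoacylglycerol lipase gene, had a ratio of 2.09 ± 0.49. Of 13 genes of a capillary and lipid handling list, Gpihbp1 alone was higher and 1 was lower, the water channel gene Aqp1 (-1.31), with a median of 0.38. By single clusters Aqp1 was lower than in cluster 4 (-2.85) but higher than in cluster 3 (2.46). Over cluster 0 it was not called (-1.24). Nos2, the inducible nitric oxide synthase, had 31.8, 25.7 and 44.9 CPM against 4.31, 2.34 and 1.70 CPM (3.24 ± 0.76). Prdm1, which encodes the repressor BLIMP1, had 76.8, 109.1 and 90.9 CPM against 14.3, 19.96 and 8.35 CPM (2.68 ± 0.54). The nuclear receptor gene Nr5a2 was low but higher, at 15.02, 8.33 and 12.5 CPM against 3.87, 2.23 and 3.49 CPM (1.61 ± 0.10). The sulfotransferase gene Chst1 (1.79 ± 0.18) and Ssu2 (79.1, 67.9 and 54.9 CPM against 16.8, 17.5 and 8.29 CPM, 2.22 ± 0.35) closed the 15 highest. For the genes named in this comparison the exact Poisson interval of a summed count was at most 15.5% wide to a side.

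**Figure D2:**
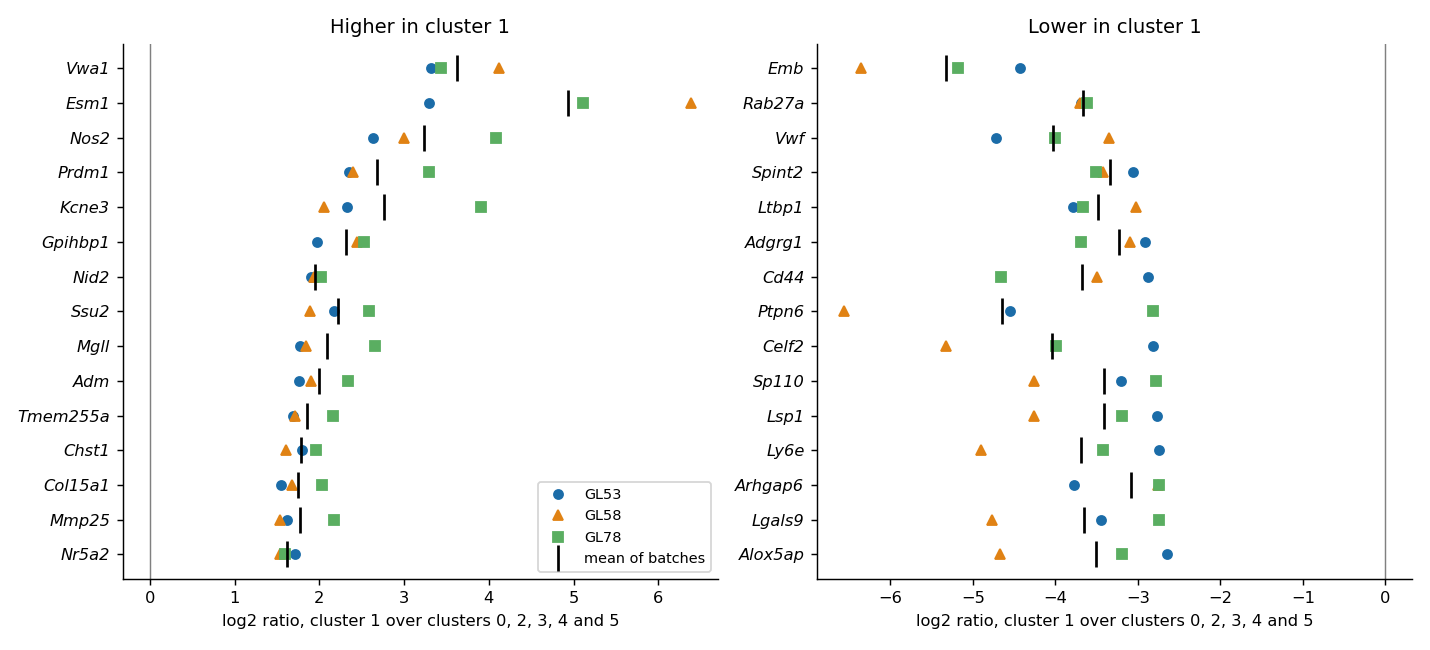
Log2 ratio of cluster 1 over clusters 0, 2, 3, 4 and 5 for the 15 highest and the 15 lowest genes, with a point per batch and a bar at the mean. Esm1 (mean 4.93), Vwa1 (3.63) and Nos2 (3.24) lead the higher genes, and Emb (-5.32), Ptpn6 (-4.64) and Vwf (-4.02) are among the lower ones.

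Many of the lower genes were highest in cluster 2. Emb, which encodes the membrane glycoprotein embigin, had 3.80, 1.09 and 1.12 CPM in cluster 1, against 102.6, 170 and 75.5 CPM in the others (-5.32 ± 0.97), and its reads lay in cluster 2 (511 CPM in GL53) and cluster 4 (185.48 CPM). Cd44, a hyaluronan receptor, had 10.1, 7.38 and 2.11 CPM against 80.6, 93.6 and 77.4 CPM (-3.68 ± 0.90) with the same 2 clusters high, at 297.98 and 242.19 CPM in GL53. Adgrg1, an adhesion G protein-coupled receptor gene, had 13.2, 7.78 and 12.6 CPM against 105.5, 74.2 and 174.1 CPM (-3.23 ± 0.40), with 644 CPM in cluster 2 in GL53. The phosphatase gene Ptpn6 (-4.64, with 0 counts in GL58, at least 687-fold lower there), the actin-binding gene Lsp1 (-3.40), Ly6e (-3.69) and the leukotriene pathway gene Alox5ap (-3.50) were likewise highest in cluster 2. Without cluster 2 in the comparison 46 genes (0.471%) were higher and 1.70% lower, and 93.5% and 81.9% of these were among the genes higher and lower with it. Of the genes higher and lower with cluster 2, 61.4% and 37.2% remained without it.

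Some of the lower genes had reads in clusters 0 and 3 as well. Vwf, which encodes the clotting protein stored in endothelial Weibel-Palade bodies, had 38.6, 28.1 and 30.4 CPM in cluster 1, against 1041, 295.5 and 504 CPM (-4.02 ± 0.68). In GL53 it had 38.6 CPM in cluster 1 beside 4521 CPM in cluster 4, 653 CPM in cluster 0 and 70.2 CPM in cluster 3, and against cluster 3 alone it was not called lower (-0.98 ± 0.20). Rab27a, a GTPase of granule release, had 4.31, 3.26 and 2.76 CPM against 67.3, 54.5 and 45.1 CPM (-3.67 ± 0.05), and it was lower than in each of clusters 0, 3 and 4. Ltbp1, a latent TGF-beta binding protein gene, was lower at -3.49 and highest in cluster 4 (271.18 and 212.26 CPM in GL53 and GL78).

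Against the pooled other clusters, lists of blood genes were low as a body. Of 15 hematopoietic transcription factor genes 0 were higher and 11 lower (median -3.04), led by Spi1 (-5.75), Ikzf1 (-5.61) and Runx3 (-4.97). Runx1 had 0.267, 0 and 2.81 CPM in cluster 1, against 30.7, 58.5 and 61.1 CPM. Ptprc, which encodes CD45, had 0, 0 and 2.16 CPM against 36.8, 49.1 and 40.7 CPM, at least 642-fold and 361.7-fold lower where it had 0 counts. Of 16 hematopoietic surface genes 10 were lower (median -3.25) and of 11 genes linked to blood stem cells 7 (median -2.49). Gata2 had 43.1, 44.4 and 33.7 CPM against 87.3, 58.9 and 160.7 CPM (-1.21 ± 0.93) and did not reach 2-fold in every batch. By contrast 0 of 24 pan-endothelial genes were higher or lower (median 0.26), Pecam1 having 1534, 1178 and 1249 CPM against 1110, 906 and 699 CPM (0.56 ± 0.24), and Kit had 140, 104.5 and 150.5 CPM against 152.2, 115.3 and 161.97 CPM (-0.12 ± 0.02).

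Across genes, cluster 1 lay nearest to cluster 3 by correlation, and by the share of genes 2-fold apart nearest to cluster 3 in GL53 but to cluster 0 in GL78. The correlation of log2 CPM across 11461 genes in GL53 and 10799 in GL78 was 0.946 and 0.940 with cluster 3, 0.926 and 0.932 with cluster 0, 0.934 and 0.910 with cluster 5, 0.770 and 0.822 with cluster 4 and 0.594 and 0.694 with cluster 2, a description over genes of cells that share plates and batches. Genes 2-fold apart from cluster 1 made up 12.4 and 12.8% with cluster 3, 13.4 and 11.3% with cluster 0, 16.3 and 17.9% with cluster 5, 33.0 and 22.7% with cluster 4 and 37.8 and 29.6% with cluster 2.

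Set against cluster 0 alone, 9555 genes were tested, 93 (0.973%) were higher in cluster 1 and 1.76% lower. The Notch target Hey1 had 160, 115.9 and 172.9 CPM in cluster 1, against 7.82, 4.37 and 9.49 CPM in cluster 0 (4.23 ± 0.20), and the arterial connexin gene Gja4 had 248.02, 120 and 230 CPM against 42.04, 16.8 and 29.6 CPM (2.74 ± 0.19). Esm1 (5.75 ± 1.17), Nos2 (4.63, 0 counts in cluster 0 in GL53 and GL58), Vwa1 (4.64), the homeobox gene Msx1 (4.12) and Ssu2 (3.97) were also among the highest, as was Foxd2os (3.42), whose name marks an antisense transcript and which is uncertain, since the counting is not stated to use strand. The lower genes included Edn1, which encodes the vasoconstrictor endothelin 1, with 17.01, 21.3 and 23.5 CPM in cluster 1 against 249.1, 274.9 and 201.2 CPM in cluster 0 (-3.49 ± 0.39). The tight junction gene Cldn11 (-4.58), the semaphorin receptor gene Plxna4 (-3.42) and the microfibril gene Fbn1 (13.2, 10.3 and 8.12 CPM against 120, 87.5 and 60.6 CPM, -2.94 ± 0.17) were lower too. Of 15 arterial genes 5 were higher and 1 lower (median 0.97), and of 8 venous genes 0 were higher and 3 lower, Nr2f1 (-2.47), Flrt2 (-2.07) and Nr2f2 (-1.50).

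Set against cluster 3, with GL53 and GL78 alone holding enough cells, 9337 genes were tested, 1.85% were higher in cluster 1 and 49 (0.525%) lower. Gja4 had 248.02 and 230 CPM in cluster 1, against 21.4 and 23.7 CPM in cluster 3 (3.35 ± 0.18), Hey1 160 and 172.9 CPM against 16.5 and 18.7 CPM (3.17 ± 0.05), and Ssu2 79.1 and 54.9 CPM against 2.26 and 1.51 CPM (4.55 ± 0.10). Unc5b, a guidance receptor of arterial and tip cells, had 156.2 and 160 CPM against 30.1 and 18.8 CPM (2.68 ± 0.49). The lower genes moved less: Bmp4, a BMP ligand gene, had 24.8 and 28.3 CPM against 66.6 and 105.3 CPM (-1.62 ± 0.33), and Agtrap (-2.29), the cathepsin gene Ctsh (-1.71) and the receptor gene Gpr182 (-1.68) followed. Of 15 arterial genes 4 were higher and 0 lower (median 0.92), and of 21 tip cell genes 5 and 0 (median 1.06, beside 0.04 over all genes). Unc5b and Dll4 were counted as higher in both lists, and the working marker Igfbp3 in the tip cell list.

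Set against cluster 4, 9972 genes were tested, 515 (5.16%) were higher in cluster 1 and 852 (8.54%) lower. The apelin receptor gene Aplnr had 1051 and 744 CPM in cluster 1, against 0.145 and 13.2 CPM in cluster 4 (7.78 ± 2.92), and its ligand Apln, a tip cell gene, had 79.6 and 169.2 CPM against 1.45 and 1.47 CPM (5.57 ± 0.76). Both genes had reads in clusters 0, 3 and 5 too. Aplnr averaged 1364, 1286 and 1164 CPM there over GL53 and GL78, against 898 CPM in cluster 1. Apln averaged 55.8, 59.8 and 155.2 CPM there, against 124.4 CPM in cluster 1. Spry1, an inhibitor of receptor tyrosine kinase signalling, had 117.6 and 113.9 CPM against 3.48 and 0 CPM, and the adaptor gene Samsn1 had 37.1 and 55.8 CPM against 0 in both batches, at least 255.5-fold and 557-fold higher. In the other direction Eln, which encodes tropoelastin, had 0.0573 and 0 CPM in cluster 1, against 1750.2 and 594 CPM in cluster 4, and Fbln2, which encodes the elastic fiber protein fibulin 2, 2.75 and 0 CPM against 1316 and 428 CPM. These are matrix genes of a large artery, and the arterial connexin gene Gja5 showed the same order, with 4.16 and 7.89 CPM against 1479 and 1622 CPM (-7.84 ± 0.46). Of 23 tip cell genes 11 were higher and 3 lower (median 1.09), of 16 glycolysis genes 10 were higher and 0 lower (median 1.39), and of 21 arterial genes 0 were higher and 13 lower (median -1.61). The 11 tip cell genes included the working markers Kcne3 and Igfbp3.

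The 3 comparisons share the cells of cluster 1, and 19 genes were higher and 8 lower in all of them. The 19 included Igfbp3, Esm1, Vwa1, Prdm1, Gpihbp1, Mgll, Chst1, Mmp25, Rgs16 and Tnfrsf11b, which encodes osteoprotegerin and had ratios of 3.34, 3.44 and 3.52 over clusters 0, 3 and 4. The 8 were Rab27a, Ptgis, Plxnc1, Foxc2, Cavin2, Rassf9, Wipf3 and Gprasp2. Counted over clusters 0 to 5 in GL53 and GL78, 472 of 11835 genes had their highest level in cluster 1 in both batches. By at least 2-fold over the next cluster 21 of them did, among them the globin genes Hbb-bh1, Hba-x and Hba-a1. More genes were highest in cluster 2 (2428, 603 of them by 2-fold), cluster 4 (1746) and cluster 5 (540, 2 of them by 2-fold), and fewer in cluster 0 (404, 32 of them by 2-fold) and cluster 3, which had 0 by 2-fold.

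Of 19 genes of the arterial list that were at least 2-fold higher in cluster 4 than in clusters 0 and 3, cluster 1 was 2-fold above clusters 0 and 3 in 5 and 2-fold below cluster 4 in 13. Of 6 venous genes higher in clusters 0 and 3, it was 2-fold above cluster 4 in 4 and 2-fold below clusters 0 and 3 in 0. Over all genes, of 592 at least 2-fold higher in cluster 4 than in clusters 0 and 3, cluster 1 was 2-fold below cluster 4 in 464 (78.4%) and 2-fold above clusters 0 and 3 in 28 (4.73%), of which 10 met both. The 28 included Dll4, Gja4, Hey1, Unc5b, Sema3g, Msx1, Plcl1 and Ssu2. Gja4, for one, had 248.02 and 230 CPM in cluster 1, 3007 and 2237 CPM in cluster 4, 42.04 and 29.6 CPM in cluster 0 and 21.4 and 23.7 CPM in cluster 3. Unc5b came closer to cluster 4, with 156.2 and 160 CPM in cluster 1 and 215.2 and 372.7 CPM in cluster 4. Gja5, in contrast, had 4.16 and 7.89 CPM in cluster 1 beside 1479 and 1622 CPM in cluster 4.

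The genes higher in clusters 0 and 3 than in cluster 4 were mostly high in cluster 1 too. Of 270 such genes cluster 1 was 2-fold above cluster 4 in 75.9% and 2-fold below clusters 0 and 3 in 2.22%. Nr2f2, the venous transcription factor, had 62.9 and 37.7 CPM in cluster 1, 3.73 and 1.70 CPM in cluster 4, 169.05 and 97.8 CPM in cluster 0 and 110.95 and 56.2 CPM in cluster 3. Nrp2, a receptor of venous and lymphatic endothelium, had 203.9 and 199.8 CPM in cluster 1, 19.3 and 15.3 CPM in cluster 4, 637 and 360.18 CPM in cluster 0 and 363.6 and 231.5 CPM in cluster 3. Both venous genes were thus above cluster 4 and below clusters 0 and 3 in both batches.

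**Figure D3:**
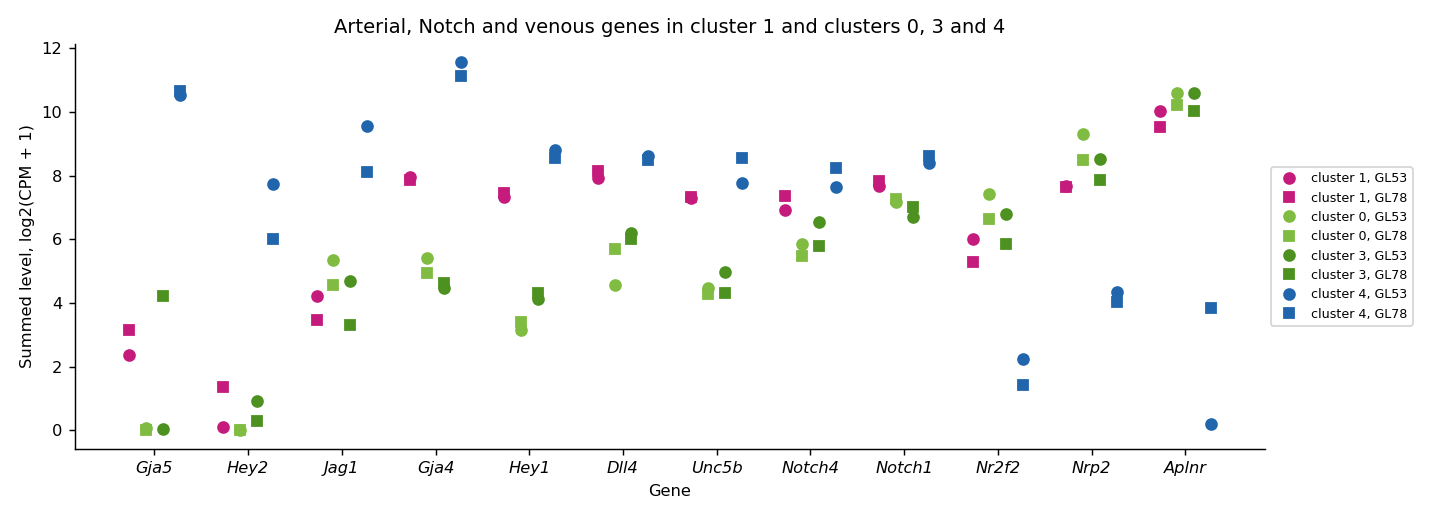
Summed CPM (log axis) of arterial and venous genes in clusters 1, 0, 3 and 4, a point for each of batches GL53 and GL78. Gja4 in cluster 1 (248.02 and 230 CPM) lies between cluster 4 (3007 and 2237 CPM) and clusters 0 and 3 (21.4 to 42.04 CPM), and Gja5 in cluster 1 (4.16 and 7.89 CPM) lies far below cluster 4 (1479 and 1622 CPM).

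By RNA, Dll4 lay above and Jag1 below the pooled other clusters, and cluster 4 was above cluster 1 in both. Among the ligands Dll4 had 243.4, 201.5 and 282.8 CPM in cluster 1, against 92.998, 141.95 and 92.5 CPM in the other clusters (1.16 ± 0.58), 2-fold in GL53 and GL78 but not in GL58, and cluster 4 held 394.18 and 357.21 CPM in GL53 and GL78. Jag1 had 17.5, 6.92 and 9.94 CPM against 143.7, 43.4 and 53.9 CPM (-2.59 ± 0.33), and Dll1 12.2, 15.3 and 15.5 CPM against 80.2, 48.1 and 34.3 CPM (-1.77 ± 0.78), both lower. Jag1 reads lay mainly in cluster 4 (750.24 and 275.39 CPM in GL53 and GL78), while clusters 2, 3 and 5 (8.90 to 25.1 CPM) were near cluster 1, and Dll1 was highest in cluster 0 (157.9 and 79.6 CPM). Jag2 had 30.97, 14.1 and 26.9 CPM against 17.9, 24.9 and 33.3 CPM, with no common direction. Among the receptors Notch1 (205.3, 220.01 and 225.4 CPM against 144.9, 150.7 and 166.7 CPM, 0.49 ± 0.06) and Notch4 (121.4, 147.6 and 161.5 CPM against 82.9, 111.1 and 75.8 CPM, 0.68 ± 0.36) were above the others by less than 2-fold. Notch2 was lower, at 7.75, 7.24 and 7.52 CPM against 20.8, 18.7 and 18.2 CPM (-1.25 ± 0.07), with cluster 2 highest (83.1 and 50.35 CPM in GL53 and GL78), and Notch3 had 9.16, 8.55 and 3.46 CPM against 21.7, 13.4 and 15.8 CPM (-1.22 ± 0.66).

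Among the Notch targets Hes1 had 137.3, 157.6 and 138.3 CPM in cluster 1, against 68.9, 52.96 and 59.8 CPM (1.25 ± 0.29), just short of 2-fold in GL53. Hey1 had 160, 115.9 and 172.9 CPM against 82.3, 131.4 and 73.5 CPM (0.66 ± 0.74), and in GL58 it was below the other clusters. Hey2 was lower, with 0.0764, 0.0905 and 1.59 CPM against 34.1, 8.03 and 9.44 CPM, and in GL53 and GL78 its reads lay in cluster 4 (211.46 and 63.4 CPM). Heyl, Hes5, Nrarp and the fringe gene Lfng stayed under 10 CPM on both sides. Cluster 1 thus had Hey1 with next to no Hey2, while cluster 4 had both. Hey1 was higher in cluster 4 than in cluster 1, at 443.15 and 376.99 CPM in GL53 and GL78.

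The GFI1+ HE gate gave 56.6% of cluster 1, against 35.1% of the other clusters as a pool, ranging from 16.5% of cluster 2 to 90.8% of cluster 4. Cluster 1 was therefore also set against them within each of 11 combinations of batch, stage and gate with at least 5 cells a side. Kcne3 (log2 ratio 1.60 to 5.03, median 2.53), Nos2 (2.13 to 5.74, median 4.12), Tmem255a (1.33 to 2.63, median 1.73) and the RhoGAP gene Arhgap18 were 2-fold higher in all 11, and 59 genes were 2-fold lower in all 11, among them Vwf (median -4.24) and Edn1 (median -2.63). Esm1 (median 3.94), Igfbp3 (1.93), Prdm1 (2.49) and Hes1 (1.52) were 2-fold higher in 10 of 11, Nid2 in 9 and Sparcl1 in 5. Tnfrsf11b was above the other clusters in 7 and 2-fold so in 6. Dll4 was above the other clusters in all 11 and 2-fold so in 5 (median 0.96), and Gja5 was 2-fold lower in 9. With small groups of cells a requirement over 11 combinations is strict.

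The antibody signals recorded at the sort gave a second readout, which the clustering did not use. Signals in arbitrary sorter units, some below 0 after compensation, were missing for 13 cells of cluster 1, and 9 combinations of batch, stage and gate had at least 5 cells a side. The median DLL4 signal of cluster 1 was above that of the other clusters in 9 of 9. It was 59.4 against 32.4 in E11.5 GFI1+ HE cells of GL53 (44 and 69 cells), 48.9 against -1.58 in those of GL78, and 138.7 against 61.4 in E10.5 GFI1+ HE cells of GL78. In E11.5 GFI1+ IAHC cells it was -1.83 against -56.6 in GL53, 50.98 against -54.7 in GL58 and 102.9 against -67.4 in GL78. Against cluster 4 alone the 3 GFI1+ HE medians were 59.4 against 50.95, 48.9 against 29.6 and 138.7 against 80.2.

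The NOTCH1 signal was higher by median in 8 of 9 combinations, for example 1049 against 769 in E11.5 GFI1+ HE cells and 1315 against 1119 in E11.5 GFI1+ IAHC cells of GL53, and lower in GL58 (1497 against 1620.0). Against cluster 4 alone the NOTCH1 medians in GFI1+ HE cells were 1049 against 512 in GL53, 879 against 660.0 at E11.5 in GL78 and 879.7 against 654 at E10.5 in GL78. JAG1 and CD31 signals were each higher in 7 of 9. In E11.5 GFI1+ HE cells of GL53 the JAG1 median was 10590 against 8430 and the CD31 median 52780 against 40580. The JAG1 signal thus did not follow the order of Jag1 RNA, and whether the signals move together in a cell was not tested. CKIT was higher in 5, CD45 and NOTCH2 in 3 and CD41 in 2 of 9.

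**Figure D4:**
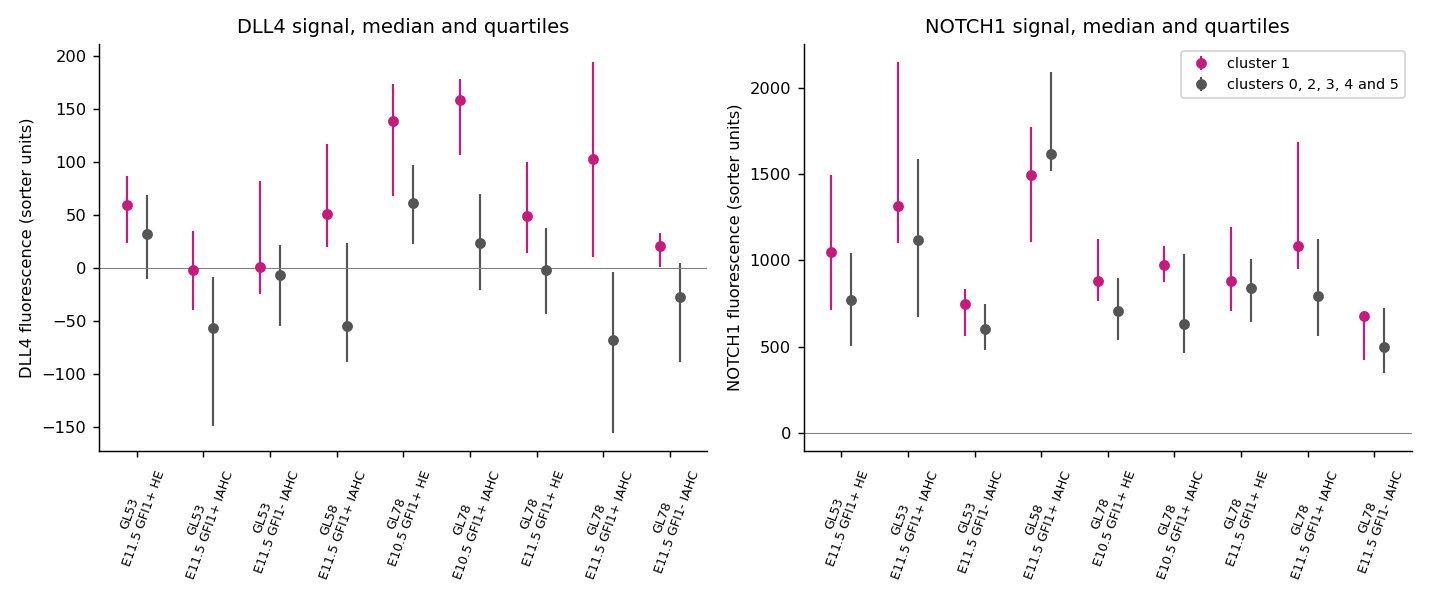
DLL4 signal (left) and NOTCH1 signal (right) of cluster 1 and of clusters 0, 2, 3, 4 and 5 in 9 combinations of batch, stage and gate, in sorter units, with points at the medians and bars over the quartiles. The DLL4 median of cluster 1 lies higher in 9 of 9 and the NOTCH1 median in 8 of 9, and the quartile bars of the DLL4 signal overlap in many combinations.

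By the phase calls of the annotation, 66 cells of cluster 1 were in G1 (45.5%), 73 in G2/M (50.3%) and 6 in S (4.14%). Cluster 3 had 45.5% in G1 and cluster 0 51.4%, while cluster 4 had 81.6% (62 of 76 cells). These shares pool the batches. By batch, G1 held 53.5% of cluster 1 and 67.4% of cluster 3 in GL53, but 43.75% and 29.4% in GL78. In GL53 and GL78 it held 73.6 and 42.9% of cluster 0, and 93.9 and 71.05% of cluster 4. The effects of these phases were removed by the authors before clustering, and the calls rest on RNA alone. Cyclin D1, Ccnd1, a driver of entry into the cycle, was higher in cluster 1 than in cluster 4 (4.26). It was not counted as higher over clusters 0 (0.73) and 3 (-0.16). Against the other clusters as a pool, the cell cycle inhibitor gene Cdkn1a (-2.59) and Cdk6 (-1.27) were lower. Over cluster 0 Cdkn1a was lower (-1.63) and Cdk6 was not (-0.68), and over cluster 3 neither was (-0.25 and 0.01). Of 19 S phase and 20 G2/M genes 0 were higher or lower against the pool (medians -0.29 and 0.38).

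Within cluster 1, the E11.5 GFI1+ HE and E11.5 GFI1+ IAHC cells differed in few genes. Of 9361 genes tested in GL53, GL58 and GL78 (44, 9 and 14 cells against 20, 10 and 9), 56 (0.598%) were higher and 53 (0.566%) lower in GFI1+ HE. Ssu2 had 111.4, 164.9 and 146.1 CPM in GFI1+ HE cells, against 14.9, 17.3 and 9.12 CPM in GFI1+ IAHC cells (3.29 ± 0.53), and Esm1 114.8, 328.6 and 304.1 CPM against 35.4, 16.01 and 79.2 CPM (2.62 ± 1.44). Sorbs2, which encodes an actin-associated adaptor, was also higher (1.82 ± 0.18). The lower genes included the potassium channel gene Kcnn3, with 6.59, 2.20 and 1.46 CPM against 41.7, 12.04 and 9.73 CPM (-2.21 ± 0.24). The matrix gene Tgfbi had 38.2, 15.1 and 30.7 CPM against 118.9, 77.2 and 102.7 CPM (-1.87 ± 0.36), and Spsb1, an adaptor of ubiquitin ligases, 16.5, 11.1 and 24.7 CPM against 50.3, 38.2 and 80.7 CPM (-1.64 ± 0.07). Of 17 arterial genes 1 was higher (Gja5, 3.03) and 0 lower (median 0.78), and of 24 pan-endothelial genes 0 (median 0.33). With 9 to 14 cells a side in 2 of the batches, the counting interval of a named gene reached 27.7%, and the spread between cells is larger than that.

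Batch GL78 held all 5 gates and stages of cluster 1, with 14 cells of GFI1+ HE, 9 of GFI1+ IAHC and 5 of GFI1- IAHC at E11.5, then 9 of GFI1+ HE and 11 of GFI1+ IAHC at E10.5, and the markers did not hold one order over them. In that order of groups Col4a1 had 2472.6, 2112.1, 1488.5, 1740.3 and 1002.2 CPM, and Sparcl1 1676.5, 945, 379.99, 417.77 and 244.44 CPM. Both were highest in E11.5 GFI1+ HE cells, as also in GL53 and GL58 among the groups these held. Igfbp3 had 1740.4, 871, 2069.9, 1122 and 619.69 CPM in GL78, where the E11.5 GFI1- IAHC cells were highest, while in GL53 they were lowest (882 CPM, against 1256.2 CPM in E11.5 GFI1+ HE and 983 CPM in E11.5 GFI1+ IAHC cells). Dll4 had 360.46, 125.07, 124.86, 334.64 and 310.57 CPM in GL78, with E11.5 GFI1+ HE cells highest, but in GL58 it was lower in E11.5 than in E10.5 GFI1+ HE cells (log2 ratio -0.64). Gja4 had 345.09, 7.14, 0, 384.74 and 193.7 CPM, and both GFI1+ HE groups were above the IAHC groups in GL78 but not in GL58, where E10.5 GFI1+ HE cells had 44.3 CPM and E11.5 GFI1+ IAHC cells 70.9 CPM.

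Between stages, E11.5 and E10.5 GFI1+ HE cells of cluster 1 were set against each other in GL58 (9 and 6 cells) and GL78 (14 and 9). Of 9415 genes tested, 441 (4.68%) were higher and 2.74% lower at E11.5. The stages lie on different plates, so stage and plate cannot be told apart. Ednrb, an endothelin receptor gene, had 279.8 and 384.4 CPM at E11.5, against 3.91 and 9.11 CPM at E10.5 (5.54 ± 0.41). Fabp4, a fatty acid binding protein of capillary endothelium, had 207.4 and 61.5 CPM at E11.5 and 0 counts at E10.5 in both batches, at least 389-fold and 162.1-fold higher. The glucose transporter gene Slc2a10 had 72.8 and 45.96 CPM against 0 and 0.127 CPM.

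Genes lower at E11.5 included Sall4, a transcription factor gene of early embryonic cells, with 1.59 and 0.773 CPM at E11.5 against 67.7 and 23.7 CPM at E10.5 (-4.26 ± 0.66). Bend5 had 2.57 and 0.773 CPM against 43.7 and 21.002 CPM (-3.64 ± 0.01), and Mbnl3, a splicing factor gene, 0 counts against 10.7 and 20.1 CPM, at least 29.04-fold and 78.1-fold lower. Rps2-ps13 (0.245 and 1.80 CPM against 223.5 and 373.5 CPM) shares its sequence with a ribosomal gene and Plxna4os1 (-3.36) overlaps another gene by name, so both are uncertain. Rps2-ps13 also had 0.592 CPM in cluster 1 in GL53 and 181.37 CPM in GL78.

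By lists, 4 of 13 capillary and lipid genes were higher at E11.5 and 0 lower (median 1.54, beside 0.01 over all genes): Fabp4, Meox1 (4.22), the fatty acid receptor gene Cd36 (3.95) and caveolin, Cav1 (2.00). Of 22 tip cell genes 6 were higher and 0 lower (median 0.59), among them Ednrb, Rgcc (5.09) and Esm1 (2.08). Of 14 shear stress and vasoactive genes 3 were higher and 0 lower (median 0.33), Thbd (4.30), Klf2 (1.97) and Klf4 (1.59), and of 14 immediate early genes 5 (median 1.04). Of 19 S phase genes 0 were higher and 4 lower (median -0.62), among them Cdc6 (-1.75). Beside these, 37 of 67 E11.5 GFI1+ HE cells of cluster 1 were called in G1 (55.2%), against 3 of 15 E10.5 GFI1+ HE cells (20%), and the part of cycle phase in the stage difference was not tested.

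**Figure D5:**
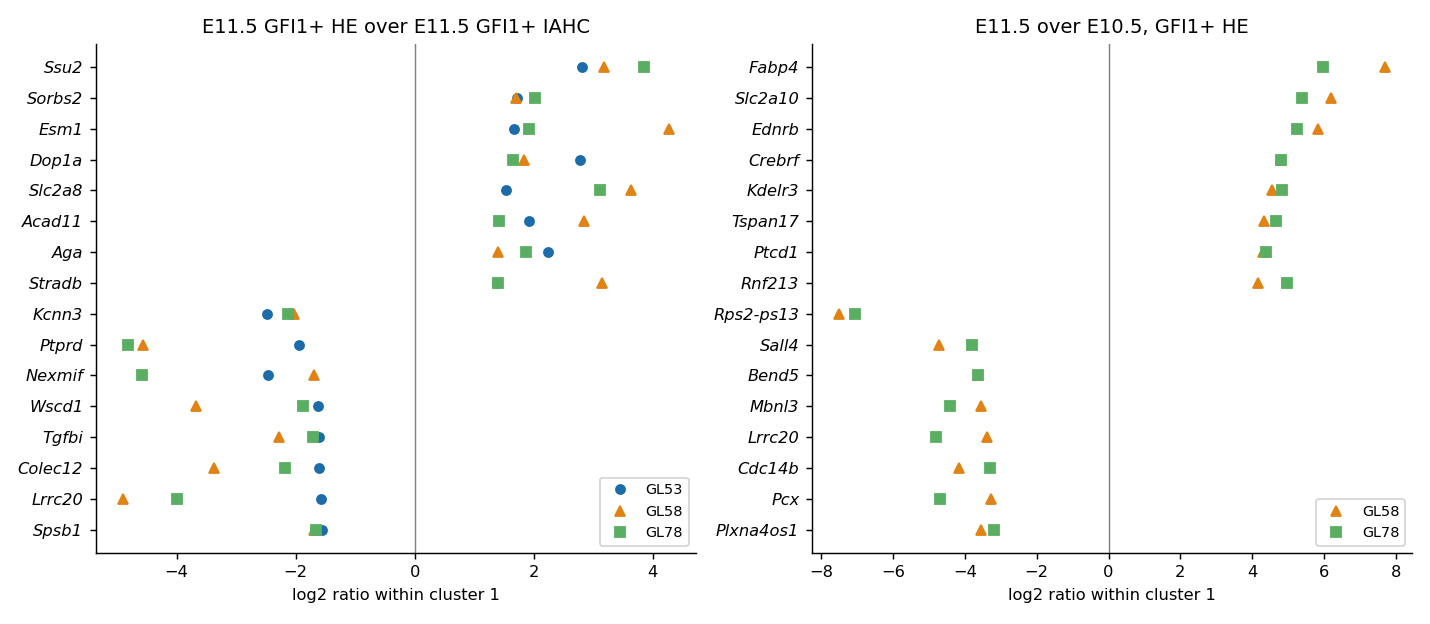
Log2 ratios within cluster 1, a point per batch, for the 8 highest and 8 lowest genes of each comparison. The comparisons are E11.5 GFI1+ HE over E11.5 GFI1+ IAHC cells (left) and E11.5 over E10.5 GFI1+ HE cells (right). Ssu2 (mean 3.29) and Esm1 (2.62) are among the higher genes on the left. On the right Ednrb (5.54) is among the higher genes and Sall4 (-4.26) among the lower ones.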

How the data were processed

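Cluster 1 and the gene lists were chosen with earlier results of these data known, and several list members were in the first rows of the authors' own marker sheet for cluster 1, so the lists are not independent evidence. Raw gene counts of single cells were deposited by the authors, who aligned Smart-Seq2 reads with STAR 2.7.3 to mm10, counted them with HTSeq 0.9.1 and processed them with Scanpy 1.4.4, per the labels and submitters' notes. The authors kept cells with at least 2500 genes, 50000 counts and under 5% mitochondrial counts (deposited as a fraction), regressed out depth, mitochondrial share and cell cycle, ran no batch correction and called Louvain clusters. For the annotation release, strand setting and duplicate handling: not given in the sources used here. Index-sort values are fluorescence intensity as deposited by the authors. Of 46078 genes 45143 had a GENCODE M21 symbol, and those without held 0.0682% of counts. The 92 spike-in rows held 0 reads. The deposited normalized table and 5 of 22 annotation columns were not used.

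Kept cells held 134284 to 2296823 counts. Counts were summed per side and batch, scaled to CPM, and compared as log2 of the ratio after adding 1 CPM, in batches with at least 10 cells a side between clusters and 5 within cluster 1. Batches weighed equally, and ± is the SD over them. Named genes were the 5 markers, the 15 highest and lowest by their smallest batch ratio in the main comparison and 8 in each other, with reads in at least 25% of the higher side's cells in each batch (unnamed predicted genes passed over), the extremes of each list, the most variable genes, and a fixed set of Notch, lineage and gate genes. Other genes in the text came from the overlap of comparisons or from the stratified comparison. A fold against 0 counts used a floor of 3 counts per side and batch. Intervals were exact Poisson or Clopper-Pearson at 95% and cover counting error only. No doublet caller was run. Calculations were checked on simulated data and used Python 3.11.15, numpy 2.4.6, pandas 2.3.3, scipy 1.17.1 and matplotlib 3.10.9. Alternatives changed the pseudocount, filter, scaling, cell weights, depth, clusters, sorted populations and batches.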

Additional observations from a re-analysis of the deposited data

How the results depend on the processing

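No paired analysis was possible because replicate numbers name single cells and match none between sides, and batch was instead held constant in each comparison. Shares here are higher or lower genes in percent of the genes tested in the report. Of 110 recomputed shares 70 stayed within 1.5 times, 40 did not and 0 reversed. With a pseudocount of 5 CPM, 0.420% were higher over the other clusters, 0.628% higher over cluster 0, and 1.03% higher and 0.139% lower over cluster 3. With no filter on low values, 6.67% were lower over the other clusters, 2.73% lower over cluster 0, 4.42% higher and 1.42% lower over cluster 3, and 8.15% higher over cluster 4. Within batch and sorted population, 0.0410% were higher and 0.604% lower over the other clusters, 0.178% and 0.157% over cluster 0, and 0.0857% and 0.0107% over cluster 3. Over clusters 0, 3, 4 and 5 only, 0.471% were higher and 1.70% lower. Leaving out 1 batch gave 0.963 to 1.64% higher and 4.53 to 4.97% lower over the other clusters, 1.42 to 1.89% and 2.39 to 3.09% over cluster 0, 5.67 to 8.39% and 1.97 to 3.68% over cluster 3, 8.25 to 15.9% and 13 to 16.8% over cluster 4, 1.61 to 2.76% and 1.60 to 2.64% between gates, and 14 to 19.3% and 12.6 to 13.7% between stages, since fewer batches had to reach 2-fold. Of 522 list medians 458 stayed the same, 62 moved and 2 reversed: the venous median over the other clusters was 0.00149 with the 5 clusters at equal weight, and the hematopoietic transcription factor median over cluster 3 was 0.0905 with no filter on low values. Of 1301 values of named genes 1121 stayed the same, 180 moved and 0 reversed. Without the 4 cells that stood apart, chosen after seeing the data, the shares were 0.994% and 1.83% over cluster 0, 1.67% and 0.589% over cluster 3, 5% and 8.86% over cluster 4, 0.598% and 0.566% between gates, and 5.34% and 2.75% between stages. Comparisons within cluster 1 rest on 6 to 44 cells a side. The causes of these changes were not tested unless stated.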

Other observations

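Among genes above 50 CPM in cluster 1, those with the largest variance over mean were of different kinds. Madcam1, which encodes a ligand of leukocyte integrins, ran from 0 to 3223 CPM in single cells with a median of 96.7 CPM and had reads in 66.9% of them. Fos, an immediate early gene that also responds to tissue dissociation, ran from 0 to 5989 CPM with a median of 274.7 CPM. Ldha, which encodes the lactate dehydrogenase A subunit, ran from 9.69 to 6164 CPM with a median of 1504 CPM, and the imprinted transcript H19 from 0 to 8101 CPM with a median of 1951 CPM. Fabp4 had a median of 0 CPM and a highest value of 1584 CPM, with reads in 36.6% of the cells. Igfbp3, Sparcl1 and Actb were the other 3 of the 8 genes.

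Cycle phase differed between the groups inside cluster 1 by the deposited calls. G1 held 37 of 67 E11.5 GFI1+ HE cells (55.2%) and 19 of 39 E11.5 GFI1+ IAHC cells (48.7%), but 3 of 15 E10.5 GFI1+ HE cells (20%) and 0 of 12 E10.5 GFI1+ IAHC cells, of which 11 were called G2/M.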
